A study of Mus musculus with 35 samples.

Results

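The 8 genes described here were Spp1, Lgals3, Lgals1, Lgals3bp, Gpnmb, Fn1, Cd44 and Vim, 8 of the 45706 genes in the deposited tables, chosen by name. They encode osteopontin, galectin-3, galectin-1, the galectin-3-binding protein, the membrane glycoprotein NMB, fibronectin, the adhesion receptor CD44 and the intermediate filament vimentin. Osteopontin and fibronectin are secreted or matrix proteins that cells bind through integrins, and osteopontin and hyaluronan are also ligands of CD44. Galectins are lectins that bind beta-galactoside sugars on glycoproteins, and galectin-3 also gathers on damaged lysosomes. Several of the set, Spp1, Lgals3 and Gpnmb among them, are known for high expression in microglia and macrophages that face dying cells, myelin debris or lipid.

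Messenger RNA was measured in microglia from the whole spinal cord of 35 mice, 1 library a mouse per the labels, all of a mixed C57BL/6J X C3HeJ F1 strain. rNLS8 mice carry NEFH-tTa and tetO-hTDP43, so the promoter of the neurofilament heavy gene switches on human TDP-43 without a nuclear localisation signal while doxycycline is withheld, and neurons, not microglia, are the cells it is built to reach. All mice received doxycycline until 8 to 12 weeks of age. The early disease group was 7 rNLS8 mice without doxycycline for 2 weeks, the late disease group 7 rNLS8 mice without it for 6 weeks, and the recovery group 7 rNLS8 mice given it again for 1 week after 6 weeks without it. As controls, 14 mice were used: 6 rNLS8 mice on doxycycline throughout, 4 wild-type littermates without it for 2 weeks, 1 without it for 6 weeks, and 3 without it for 6 weeks and then given it for 1 week. Cells had been sorted as live CD11b and CD45 stained cells, a gate that can also hold monocytes, neutrophils and border macrophages.

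Libraries held 13.9 M to 20.4 M counts (M, mega). Sample names carry a date code. All 7 recovery libraries had the code 0803, shared with no other group, so recovery and that date cannot be told apart. All 6 rNLS8 controls and 3 wild-type controls had 0810, the other 5 controls had 1019 or 1102, and both disease groups were spread over 1019, 1102 and 1130. The homeostatic microglial genes of a list of 12, such as Tmem119 and P2ry12, were abundant in every library, with a summed level of 31179 to 61985 CPM (counts per M counts of the library) in late disease and 59834 to 83893 CPM in controls. Markers of fibroblasts and mural cells, other producers of fibronectin and osteopontin, summed to at most 4.29 CPM in any library, and Col3a1, Dcn and Lum among them had no count in any group.

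CPM uses the library size after TMM scaling and compares 1 gene between libraries. Differences are log2 fold changes from edgeR's quasi-likelihood test with Benjamini-Hochberg adjustment over all 13501 genes tested, and a gene was called at an adjusted p under 0.05. All 8 genes passed the filter on low counts. None of the 8 was called in early disease against control, where 0.00741% of all genes tested were called. At an unadjusted p under 0.05, 2 of the 8 differed there, Lgals1 and Lgals3, as did 12.6% of all genes. DESeq2 called none of the 8 in early disease, beside 1.02% of all genes. By limma on log2(TPM + 1) 2 were called, Lgals1 and Vim (adjusted p = 0.0375 and 0.0477), beside 10.5% of all genes. In late disease 6 of the 8 were higher than in controls, Spp1, Fn1, Lgals3, Lgals3bp, Lgals1 and Cd44, against 9.01% of all genes called higher. In recovery 7 of the 8 were higher than in controls, all but Lgals3bp, against 2.87% of all genes called higher. The median log2 fold change of the 8 genes was 0.37 in early disease, 1.69 in late disease and 2.50 in recovery, beside medians over all genes tested of 0.02 in late disease and -0.01 in recovery. The 3 comparisons share their 14 controls. In sorted bulk cells, fewer cells of a type that expresses a gene and less RNA per cell cannot be told apart.

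**Figure D1:**
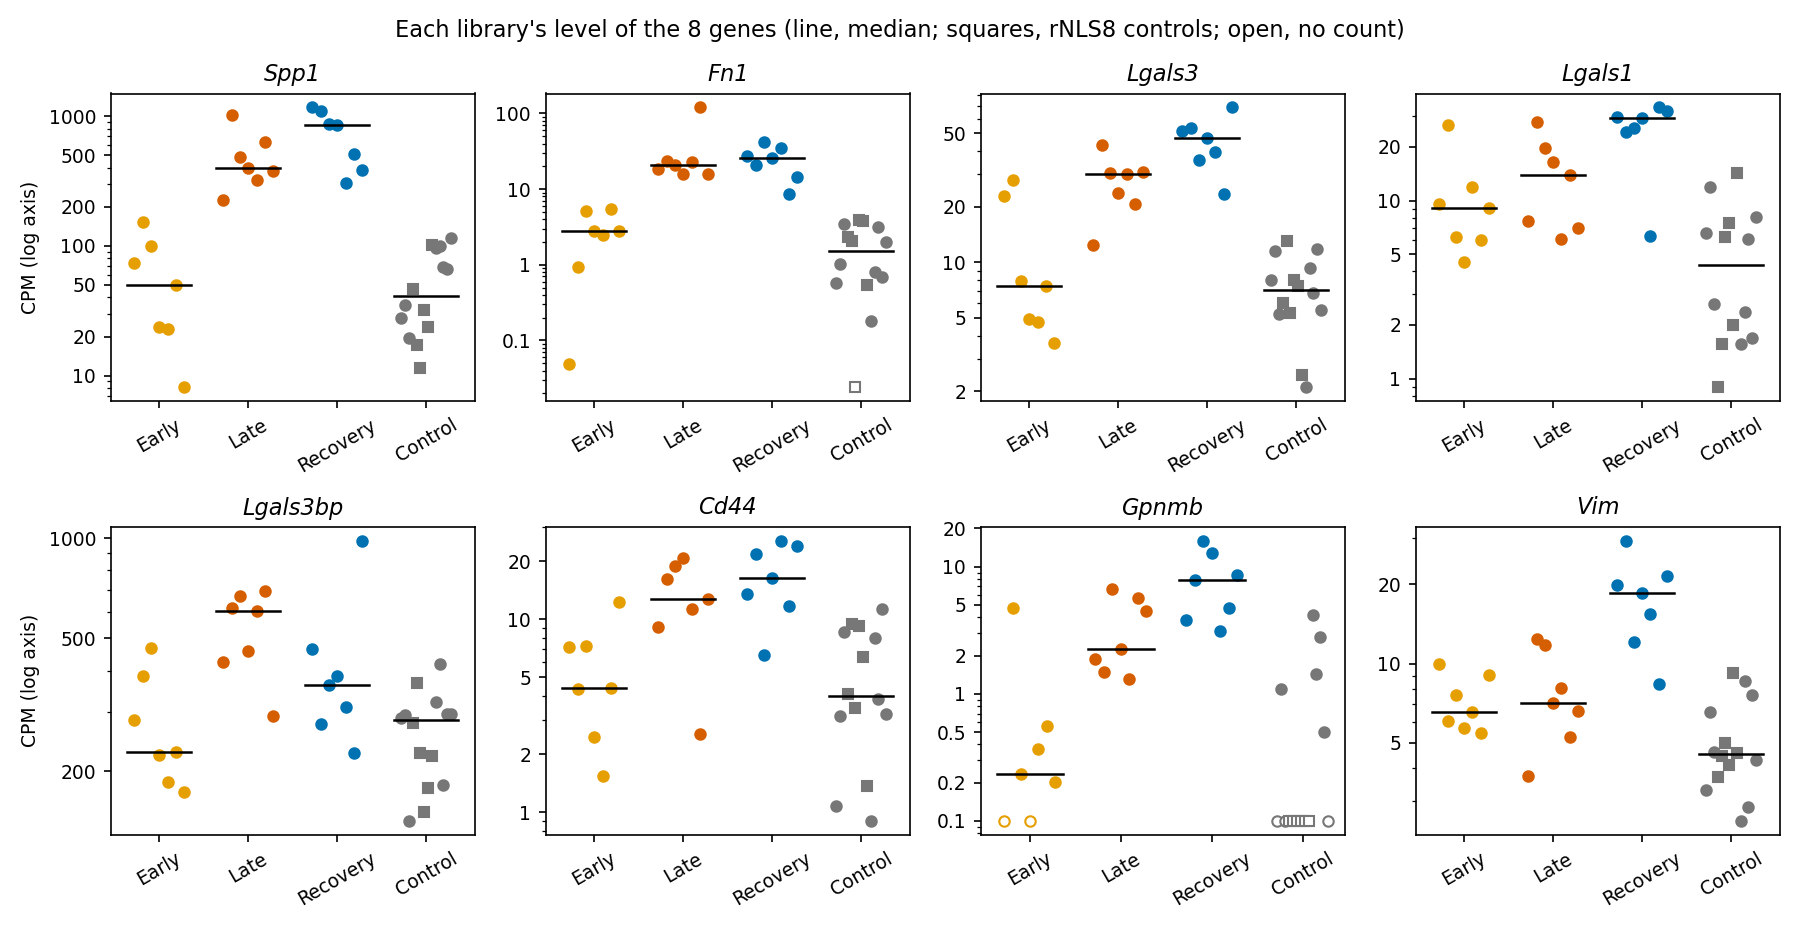
CPM on log axes of the 8 genes in each of the 35 libraries, by group, with a line at the group median and squares for the 6 rNLS8 controls. Open symbols at the foot are libraries with no count. All late disease and recovery libraries lay above all controls for Spp1 and Fn1.

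**Figure D2:**
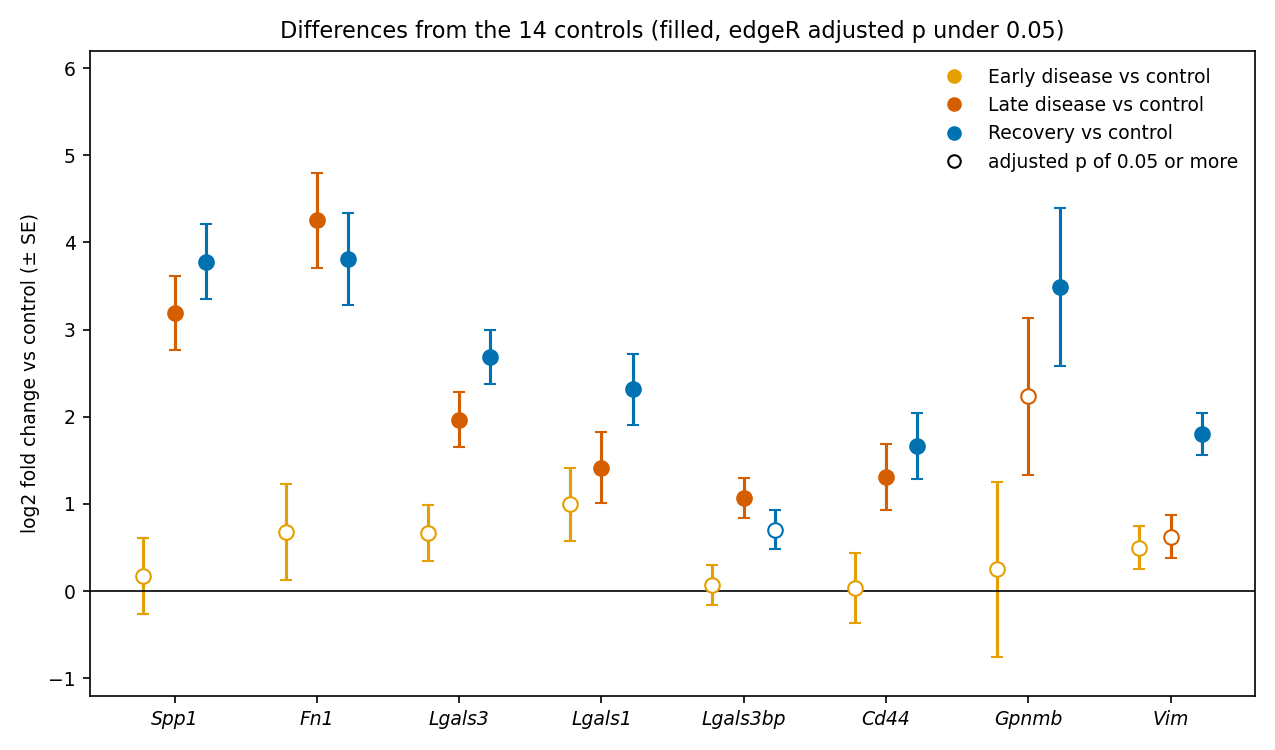
Log2 fold change against the 14 controls, with its standard error, for early disease, late disease and recovery. Filled points passed an edgeR adjusted p of 0.05: none in early disease, 6 in late disease and 7 in recovery.

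Spp1 (ENSMUSG00000029304.12; chr5:104435118-104441050, plus strand, mm10) encodes osteopontin, a secreted phosphoprotein that binds integrins through an RGD motif. Early disease libraries ran from 8.14 to 153 CPM with a median of 49.7. Late disease libraries ran from 224 to 1026 CPM with a median of 402, and recovery libraries from 306 to 1166 CPM with a median of 849, against 11.5 to 115 CPM with a median of 40.7 in the 14 controls. Recovery libraries fell into 4 with 849 CPM or more, the 3 males and 1 female, and 3 with 508 CPM or less, all females. The interaction of sex with recovery was 0.84 ± 0.85 on the log2 scale and was not called (SE; edgeR adjusted p = 0.955). Every late disease and every recovery library was above every control and every early disease library, while early disease and control overlapped across most of their range. Against control the log2 fold change was 0.17 ± 0.44 in early disease (SE; edgeR adjusted p = 0.917), 3.19 ± 0.42 in late disease (edgeR adjusted p = 5.83e-06) and 3.78 ± 0.43 in recovery (edgeR adjusted p = 1.13e-06). Spp1 and Fn1 were the members whose late disease libraries all lay above all controls, as did 0.281% of all genes tested. In recovery the same held for Spp1, Fn1 and Lgals3, and for 0.430% of all genes tested.

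Within the controls, Spp1 differed between date codes that also differed in doxycycline. The 9 controls of 0810 averaged 34.9 ± 27.0 CPM and the 5 of 1019 and 1102 averaged 89.0 ± 20.8 CPM (SD). At the end of the regimen all 9 were on doxycycline and all 5 were off it. Date and doxycycline cannot be told apart here. The 6 rNLS8 controls averaged 38.7 ± 33.0 CPM and the 8 wild-type controls 65.9 ± 35.8 CPM, a log2 difference of -0.82 ± 0.47 (edgeR adjusted p = 0.71), and genotype follows the date in part, since all rNLS8 controls had 0810. Dates can be held fixed in part of the late disease comparison. Among libraries of 1019, the late disease library had 224 CPM and the 4 controls 66.4 to 99.6 CPM. Among those of 1102, the 3 late disease libraries had 402 to 1026 CPM and the single control 115 CPM.

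The 300 bases around the Spp1 start (RefSeq, GRCm38.p6, chr5:104434861-104435160, plus strand) are shown because Spp1 and Gpnmb hold the same short run of letters. Capitals mark that run, the RUNX letters TGTGGT read from the other strand:
Spp1: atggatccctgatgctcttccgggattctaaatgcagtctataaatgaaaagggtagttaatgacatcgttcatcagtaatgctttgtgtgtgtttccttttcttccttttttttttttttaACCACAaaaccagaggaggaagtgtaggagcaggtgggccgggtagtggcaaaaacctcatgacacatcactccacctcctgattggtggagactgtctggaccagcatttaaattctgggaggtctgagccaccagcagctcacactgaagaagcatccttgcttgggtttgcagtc
Gpnmb: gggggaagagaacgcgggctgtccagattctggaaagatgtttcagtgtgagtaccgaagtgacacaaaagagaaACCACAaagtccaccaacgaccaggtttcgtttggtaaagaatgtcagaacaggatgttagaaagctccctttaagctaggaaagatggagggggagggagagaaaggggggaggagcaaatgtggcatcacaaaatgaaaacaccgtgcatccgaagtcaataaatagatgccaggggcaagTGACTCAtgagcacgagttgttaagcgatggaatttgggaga
The Gpnmb window is chr6:49036268-49036567 on the plus strand, and its second run of capitals matches the AP-1 letters TGANTCA. Counted from the start, the run begins at base -128 in Spp1 and at base -175 in Gpnmb, and the AP-1 letters begin at base 8 of Gpnmb. RefSeq gave a window for 6 of the 8 genes, with a second start for Spp1. Motifs were searched on both strands and were chosen after the sequences had been seen. TGTGGT stood in 16.8% and TGANTCA in 7.81% of 32851 promoter windows. The E-box letters CATGTG stood in 14.2% of them and, among the 8 genes, in Lgals3bp, while CACGTG, in 7.15% of all windows, was found in none of the 6. A match of letters is a description of the window and says nothing of binding.

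Cd44 (ENSMUSG00000005087.15; chr2:102811141-102901665, minus strand) encodes a receptor for hyaluronan and osteopontin. Its early disease libraries ran from 1.54 to 12.3 CPM with a median of 4.43. Late disease libraries ran from 2.54 to 20.9 CPM with a median of 12.8. In recovery libraries it ran from 6.50 to 25.5 CPM with a median of 16.4, against 0.905 to 11.3 CPM with a median of 3.99 in controls. Cd44 was above the highest control in 5 of 7 late disease and 6 of 7 recovery libraries. Early disease differed from control by 0.03 ± 0.40 on the log2 scale (SE; edgeR adjusted p = 0.987). The rise was 1.31 ± 0.38 in late disease (edgeR adjusted p = 0.0182) and 1.67 ± 0.38 in recovery (edgeR adjusted p = 0.00742).

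Fn1 (ENSMUSG00000026193.13; chr1:71585520-71653200, minus strand) encodes fibronectin, which cells assemble into matrix fibrils. Early disease libraries held 0.0484 to 5.54 CPM with a median of 2.76, and the lowest values, 0.0484 and 0.930 CPM, were those of date 1019. Late disease libraries held 15.8 to 120 CPM with a median of 20.5, and 6 of the 7 lay between 15.8 and 23.2 CPM. Recovery libraries held 8.67 to 41.4 CPM with a median of 25.6, against 0 to 3.86 CPM with a median of 1.50 in controls. The lowest late disease library stood above the highest early disease library and the highest control, and so did the lowest recovery library. Early disease differed from control by 0.68 ± 0.55 on the log2 scale (SE; edgeR adjusted p = 0.653). Fn1 had the largest fold change of the 8 genes in late disease, 4.25 ± 0.54 (edgeR adjusted p = 3.3e-06), and rose by 3.81 ± 0.52 in recovery (edgeR adjusted p = 1.37e-05).

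The late disease library with 120 CPM of Fn1, Late disease 6, stood apart in other ways. It had the lowest Cd44 of its group, the lowest homeostatic sum, 31179 CPM, and the highest sum of 12 border macrophage markers, 732 CPM, beside 176 to 362 CPM in the other late disease libraries and 99.9 to 331 CPM in controls. Without it Fn1 was 3.50 higher than control (log2; edgeR adjusted p = 2.19e-05) and Cd44 1.48 higher (edgeR adjusted p = 0.0113). The part of border macrophages in its Fn1 level was not tested. Across the group, 2 of 11 tested border macrophage markers were called higher in late disease and 1 in recovery, against 9.01% and 2.87% of all genes.

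Lgals3 (ENSMUSG00000050335.14; chr14:47367751-47386160, plus strand) encodes galectin-3, which can bind TREM2 and damaged endosomes and lysosomes. Early disease libraries split by date. Early disease 1 and 3, both of 1019, had 22.7 and 27.8 CPM, above every control, while the other 5 had 3.67 to 7.93 CPM. Late disease libraries ran from 12.4 to 43.0 CPM with a median of 30.2, recovery libraries from 23.3 to 68.9 CPM with a median of 47.0, and controls from 2.11 to 13.01 CPM with a median of 7.13. The single late disease library of 1019 was the lowest of its group and lay below both early disease libraries of that date. All recovery libraries and 6 of 7 late disease libraries were above all controls. The early disease difference was 0.67 ± 0.32 on the log2 scale (SE; edgeR adjusted p = 0.383, unadjusted p = 0.045). Lgals3 rose by 1.97 ± 0.31 in late disease (edgeR adjusted p = 9.87e-05) and by 2.69 ± 0.31 in recovery (edgeR adjusted p = 1.34e-06).

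Lgals1 (ENSMUSG00000068220.5; chr15:78926725-78930465, plus strand) encodes galectin-1, a dimeric lectin of secreted and cytosolic pools. Early disease libraries ran from 4.53 to 26.5 CPM with a median of 9.10, and all 7 lay above the control median of 4.35. Late disease libraries ran from 6.08 to 27.8 CPM with a median of 13.9. Recovery libraries ran from 6.29 to 33.3 CPM with a median of 29.0, against 0.896 to 14.2 CPM in controls. In recovery, 6 of 7 libraries had 24.1 CPM or more, above the highest control, and Recovery 7 had 6.29 CPM. Lgals1 had the largest log2 difference of the 8 genes in early disease, 0.99 ± 0.41, which did not pass (SE; edgeR adjusted p = 0.302, unadjusted p = 0.0217). It rose by 1.42 ± 0.41 in late disease (edgeR adjusted p = 0.0174), a call that ended without Late disease 2 (edgeR adjusted p = 0.0506), and by 2.31 ± 0.41 in recovery (edgeR adjusted p = 0.000404).

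Lgals3bp (ENSMUSG00000033880.9; chr11:118392751-118402092, minus strand) encodes a secreted glycoprotein that binds galectin-3 and is known to be induced by interferon. Early disease libraries ran from 173 to 468 CPM with a median of 228. Late disease libraries ran from 293 to 696 CPM with a median of 603, and recovery libraries from 227 to 981 CPM with a median of 362, against 142 to 419 CPM with a median of 284 in controls. Late disease exceeded the highest control in 6 of 7 libraries, and recovery did so in 2 of 7, of which Recovery 9 had 981 CPM. Early disease differed from control by 0.07 ± 0.23 on the log2 scale (SE; edgeR adjusted p = 0.938). Lgals3bp rose by 1.07 ± 0.23 in late disease (edgeR adjusted p = 0.00176). In recovery the difference was 0.70 ± 0.23 and did not pass (edgeR adjusted p = 0.0708). Without Recovery 8 it was 0.82 (edgeR adjusted p = 0.0326), and without Control 11 it was 0.80 (edgeR adjusted p = 0.0258).

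Gpnmb (ENSMUSG00000029816.8; chr6:49036546-49070929, plus strand) encodes a transmembrane glycoprotein of lysosomes and the cell surface and is a known target of the MITF family of transcription factors. Its promoter window is printed above. Early disease libraries ran from 0 to 4.76 CPM with a median of 0.235, and all but Early disease 3, at 4.76 CPM, had 0.554 CPM or less. Late disease libraries ran from 1.30 to 6.62 CPM with a median of 2.24, and recovery libraries from 3.12 to 15.9 CPM with a median of 7.86. Among controls all 6 rNLS8 libraries had no count. The 4 wild-type controls without doxycycline for 2 weeks, all of date 1019, had 4.16, 1.43, 2.79 and 0.501 CPM, and the other 4 wild-type controls were at 0 apart from 1 with 1.09 CPM. Every late disease and recovery library thus exceeded every rNLS8 control, while both late disease and recovery overlapped the wild-type controls. The share of all genes that exceeded the rNLS8 controls in this way was not counted. Of the 7 recovery libraries 5 lay above the highest wild-type control, and the other 2 had 3.12 and 3.84 CPM.

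A floor of 3 counts per library was 0.189 CPM on average in the rNLS8 controls. Against it mean Gpnmb was at least 4.62-fold higher in early disease, 18.0-fold in late disease and 43.1-fold in recovery. The early disease mean rested mostly on Early disease 3, at 4.76 CPM. All 6 rNLS8 controls had the date code 0810, which no disease or recovery library had, so group and date cannot be told apart in these folds. Among wild-type controls of 0810, Controls 1 and 3 had no count and Control 2 had 1.09 CPM. The floor covers counting error only. Against all 14 controls the fitted log2 difference was 0.25 ± 1.01 in early disease (SE; edgeR adjusted p = 0.953), 2.23 ± 0.90 in late disease (edgeR adjusted p = 0.0866) and 3.49 ± 0.90 in recovery (edgeR adjusted p = 0.02). These fitted values depend on how counts of 0 are treated. The recovery call ended without Recovery 4 (edgeR adjusted p = 0.053) and with wild-type controls only (edgeR adjusted p = 0.116). Late disease was called without Control 10 (edgeR adjusted p = 0.0181) or without Control 12 (edgeR adjusted p = 0.0447).

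Vim (ENSMUSG00000026728.7; chr2:13573927-13582826, plus strand) encodes vimentin, an intermediate filament of motile and activated cells. Early disease libraries ran from 5.44 to 9.97 CPM with a median of 6.57, and late disease libraries from 3.73 to 12.4 CPM with a median of 7.11. Recovery libraries ran from 8.38 to 29.3 CPM with a median of 18.5, against 2.53 to 9.23 CPM with a median of 4.52 in controls. Late disease stood above the highest control in 2 of 7 libraries, and recovery in 6 of 7. On the log2 scale the difference from control was 0.50 ± 0.25 in early disease (SE; edgeR adjusted p = 0.399) and 0.63 ± 0.25 in late disease (edgeR adjusted p = 0.0781). Vim rose by 1.81 ± 0.24 in recovery (edgeR adjusted p = 9.58e-06). Late disease was called on leaving out Late disease 1, Control 8 or Control 11 (edgeR adjusted p = 0.0394, 0.0424 and 0.0468).

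Dates 1019 and 1102 hold late disease libraries and controls together, and within 1102 the 3 late disease libraries lay above the single control for all 8 genes. The share of all genes with such an order within a date was not counted. With a single control or a single late disease library, an unchanged gene can show it too. Within 1019 the single late disease library lay above all 4 controls for 5 of the 8, Spp1, Fn1, Lgals3, Lgals1 and Lgals3bp. It did not for the other 3. There Cd44 had 9.09 CPM in late disease and up to 11.3 CPM in controls, Gpnmb 1.89 and up to 4.16 CPM, and Vim 3.73 and up to 8.58 CPM. At 1019 Fn1 had 18.6 CPM in the late disease library and 0.181 to 3.19 CPM in controls, and at 1102 it had 16.0 to 23.2 CPM in late disease and 1.97 CPM in the control. No control had the code 1130. With date code as a term over the 19 libraries of these 3 dates, none of the 8 genes was called in late disease, beside 0.0153% of all genes. The log2 differences were then 3.01 for Spp1 (edgeR adjusted p = 0.142), 3.48 for Fn1 (edgeR adjusted p = 0.169) and 2.94 for Lgals3 (edgeR adjusted p = 0.0984). That fit, with 5 controls, called 2 genes of all those tested. Against the 5 controls of shared dates, without the term, 4 of the 8 genes were called, Spp1, Fn1, Lgals3 and Lgals1, beside 1.41% of all genes.

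**Figure D3:**
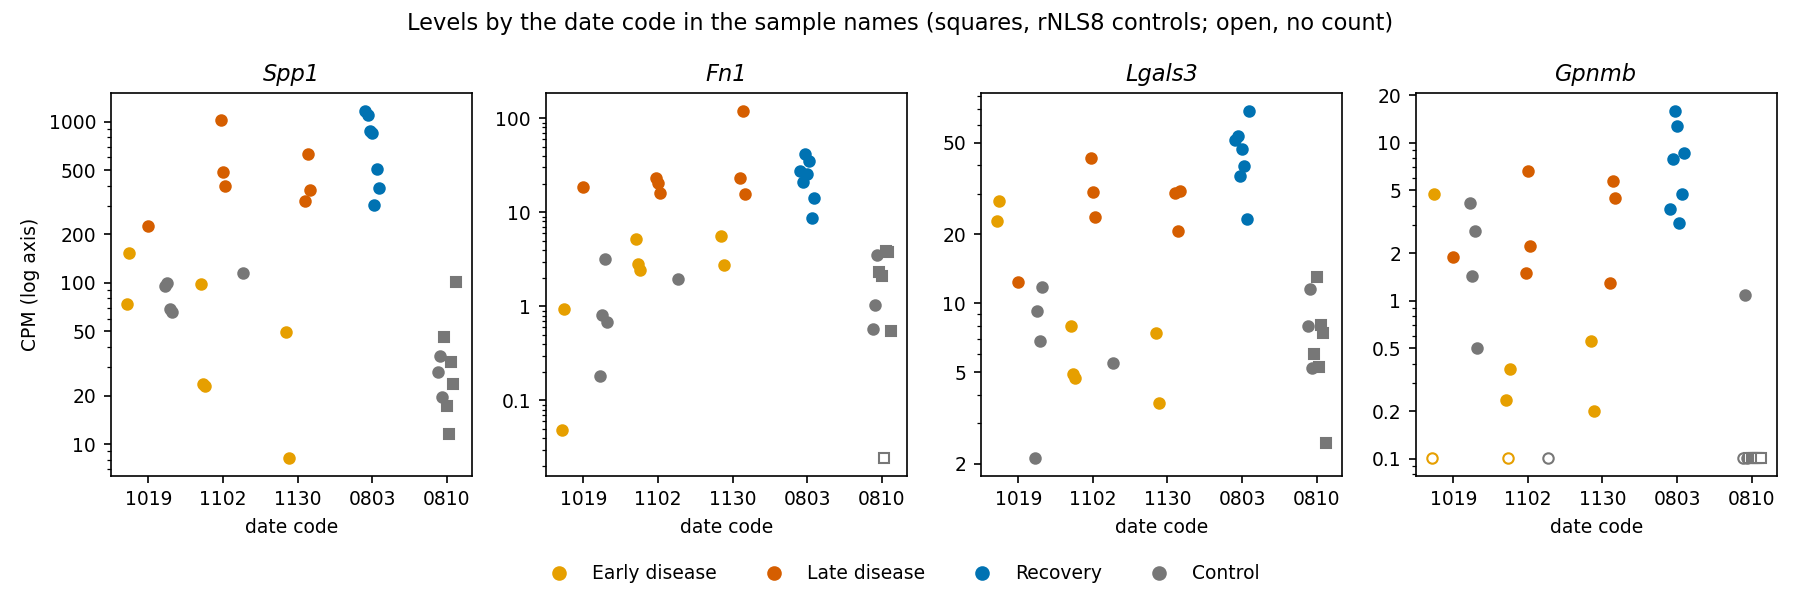
CPM on log axes of Spp1, Fn1, Lgals3 and Gpnmb by date code, coloured by group, with squares for rNLS8 controls and open symbols for libraries with no count. At 1102 and 1130 every late disease library lay above every early disease library of its date for all 4 genes, and at 1019 this held for Spp1 and Fn1 but not for Lgals3 or Gpnmb. Of the genes not drawn, Vim, Cd44, Lgals1 and Lgals3bp, none showed this order at both 1102 and 1130. The share of all genes with such an order was not counted, and with so few libraries a date an unchanged gene can show it.

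Late disease was set directly against early disease. The difference is taken between these 2 groups, and the controls enter the fit through the estimates of spread and of the sex term. Spp1 was 3.02 ± 0.54 higher on the log2 scale in late disease (SE; edgeR adjusted p = 0.0125) and Fn1 3.58 ± 0.68 higher (edgeR adjusted p = 0.0125). These 2 of the 8 genes were called higher, against 0.600% of all genes. For both, the lowest late disease library lay above the highest early disease library, which held for 0.370% of all genes. Lgals3bp differed by 0.99 ± 0.27 (edgeR adjusted p = 0.0643) and Lgals3 by 1.30 ± 0.38 (edgeR adjusted p = 0.0805), and Cd44 by 1.28 ± 0.46 (edgeR adjusted p = 0.171). Vim stood at 0.13 ± 0.29 (edgeR adjusted p = 0.902). Lgals3 was called when Early disease 1 or Early disease 3 was left out (edgeR adjusted p = 0.0355 and 0.0415), and Lgals3bp without Early disease 4 or Late disease 7 (edgeR adjusted p = 0.0486 and 0.0358). With date code as a term Spp1 and Fn1 kept their calls (edgeR adjusted p = 0.0171 and 0.0261), and so they did in a fit of the 2 disease groups alone with that term (edgeR adjusted p = 0.049 and 0.0494).

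Recovery was set against late disease. No late disease library had the recovery date code, 0803, so the week of doxycycline and the date cannot be told apart in these differences. None of the 8 genes was called lower in recovery, against 0.244% of all genes. Vim alone was called, 1.18 ± 0.29 higher on the log2 scale in recovery (SE; edgeR adjusted p = 0.0471), against 0.341% of all genes called higher. That call ended in 10 of the 14 fits that left out 1 library, with edgeR adjusted p up to 0.128. Spp1 differed by 0.59 ± 0.51 (edgeR adjusted p = 0.608), Lgals3 by 0.72 ± 0.37 (edgeR adjusted p = 0.326) and Lgals1 by 0.90 ± 0.49 (edgeR adjusted p = 0.356). Fn1 differed by -0.45 ± 0.60 (edgeR adjusted p = 0.771) and by 0.35 without Late disease 6 (edgeR adjusted p = 0.83). Lgals3bp differed by -0.36 ± 0.27 (edgeR adjusted p = 0.528) and lay above the late disease median in 1 of 7 recovery libraries. Gpnmb lay above that median in all 7 (1.26 ± 1.07, edgeR adjusted p = 0.598). Against early disease, recovery was higher for Spp1 (3.60 ± 0.56), Lgals3 (2.02 ± 0.38), Fn1 (3.13 ± 0.66) and Vim (1.31 ± 0.29), with edgeR adjusted p of 0.0012, 0.00558, 0.0144 and 0.0206, and 0.770% of all genes were called higher.

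Neutrophil and monocyte markers were also higher in recovery than in controls. The 13 neutrophil markers summed to 547 to 785 CPM in early disease, 684 to 1066 CPM in late disease, 793 to 7753 CPM in recovery and 455 to 853 CPM in controls, and 10 of the 11 tested rose in recovery. Csf3r, a granulocyte receptor gene, made up most of the control sum at 567 ± 85.4 CPM (SD, n = 14), while S100a8 averaged 726 ± 729 CPM in recovery and 13.6 ± 22.8 CPM in controls. In early disease, late disease and controls alike, 12 of the 13 markers had a median under 1 CPM. Sums in those groups thus follow largely 1 gene and are not a measure of neutrophil content. The 12 monocyte markers summed to 13.2 to 41.7 CPM in early disease, 17.4 to 71.2 CPM in late disease, 40.4 to 679 CPM in recovery and 6.33 to 27.5 CPM in controls, and 8 of the 10 tested rose in recovery. Elane and Mpo, granule genes of immature neutrophils, had no count in late disease, and Mpo had none in controls. Recovery 4 had the lowest sums of both lists (793 and 40.4 CPM). It had 877 CPM of Spp1, 36.0 of Lgals3, 41.4 of Fn1, 15.9 of Gpnmb and 25.6 of Lgals1. Its Vim stood at 12.0, its Cd44 at 6.50 and its Lgals3bp at 362 CPM. All of these but Cd44 and Lgals3bp were above the highest control of the gene, which was 419 CPM for Lgals3bp. The share of all genes above the highest control in that library was not counted. Its Cd44 was the lowest of the group, and its Fn1 and Gpnmb were the highest. Recovery 8, next lowest in neutrophil markers at 929 CPM, had the lowest Lgals3, Lgals3bp, Fn1 and Vim of the group and the highest Lgals1. Recovery 3, highest at 7753 CPM, had the highest Vim, and Recovery 9, at 7004 CPM, the highest Lgals3 and Lgals3bp. Recovery 7, at 5175 CPM, had the highest Cd44 but the lowest Spp1, Lgals1 and Gpnmb. The highest Spp1 was in Recovery 2, at 2501 CPM of these markers.

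Without Recovery 3 and Control 13, the libraries with the highest neutrophil marker sums of their groups, 7 of the 8 genes were called in recovery against control, beside 3.27% of all genes. Cd44 then had an edgeR adjusted p of 0.0248 and Gpnmb of 0.0451. Without Recovery 3 and Control 6, the control with the next highest sum (843 CPM), 7 of the 8 were called as well, beside 2.60% of all genes, with an edgeR adjusted p of 0.0453 for Cd44 and 0.0451 for Gpnmb. Without Recovery 3 alone, the Vim difference between recovery and late disease was 1.02 (edgeR adjusted p = 0.128). These fits kept Recovery 9 and Recovery 7, with neutrophil marker sums of 7004 and 5175 CPM, so they cannot show the part of these cells. That part in the levels of Vim, Cd44, Lgals1 and Lgals3, which neutrophils and monocytes also express, was not tested.

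**Figure D4:**
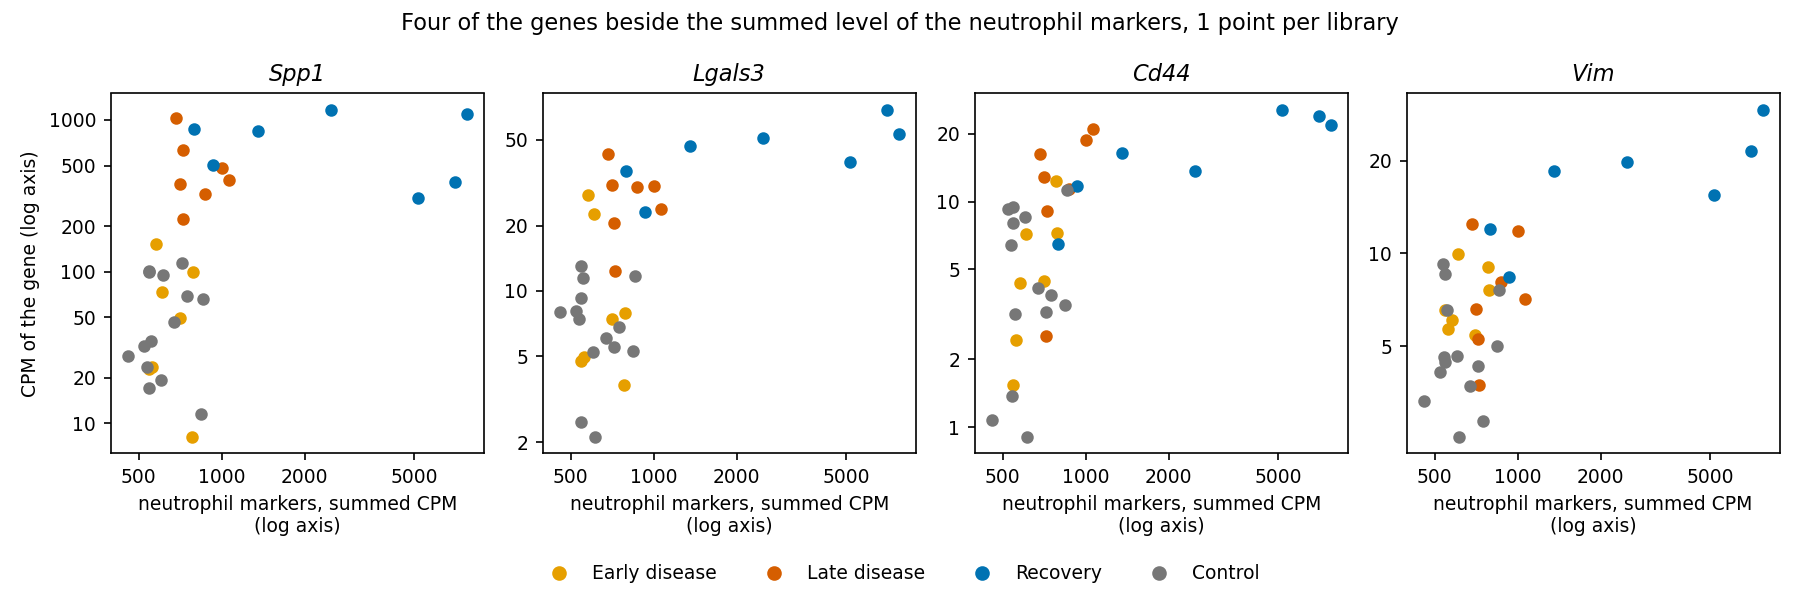
CPM of Spp1, Lgals3, Cd44 and Vim in each library beside the summed CPM of 13 neutrophil markers, both on log axes, coloured by group. In late disease, with marker sums up to 1066 CPM, Spp1 was above all controls. In early disease, late disease and controls, 12 of the 13 markers had a median under 1 CPM, so sums there follow largely 1 gene. The highest Vim and Cd44 values lay in recovery libraries of high marker sums.

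Genes can be compared with each other only per length, on the deposited TPM scale. Early disease had Lgals3bp first at a median of 213 TPM and Spp1 next at 75.9 TPM. In late disease Spp1 came first at 536 TPM and Lgals3bp next at 483 TPM, with ranges of 363 to 1443 and 252 to 537 TPM that overlapped. Late disease ranges did not overlap between Lgals3bp and Lgals3 (28.3 to 83.9 TPM), between Lgals1 (14.1 to 68.1 TPM) and Cd44 (1.33 to 10.6 TPM), or between Fn1 (3.95 to 29.6 TPM) and Gpnmb (0.635 to 3.24 TPM). In recovery Spp1 stood at 1108 TPM and Lgals3bp at 292 TPM. Fn1, despite its fold change, reached a median of 5.91 TPM in late disease and 6.26 TPM in recovery, and Gpnmb 1.14 and 3.46 TPM. In controls the order of median levels was Lgals3bp at 209 TPM, Spp1 at 48.9, Lgals3 at 10.96, Lgals1 at 8.60, Vim at 3.83, Cd44 at 1.99, Fn1 at 0.583 and Gpnmb at 0 TPM, and the ranges of all neighbours in that order overlapped. Gpnmb was the lowest of the 8 in every group.

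**Figure D5:**
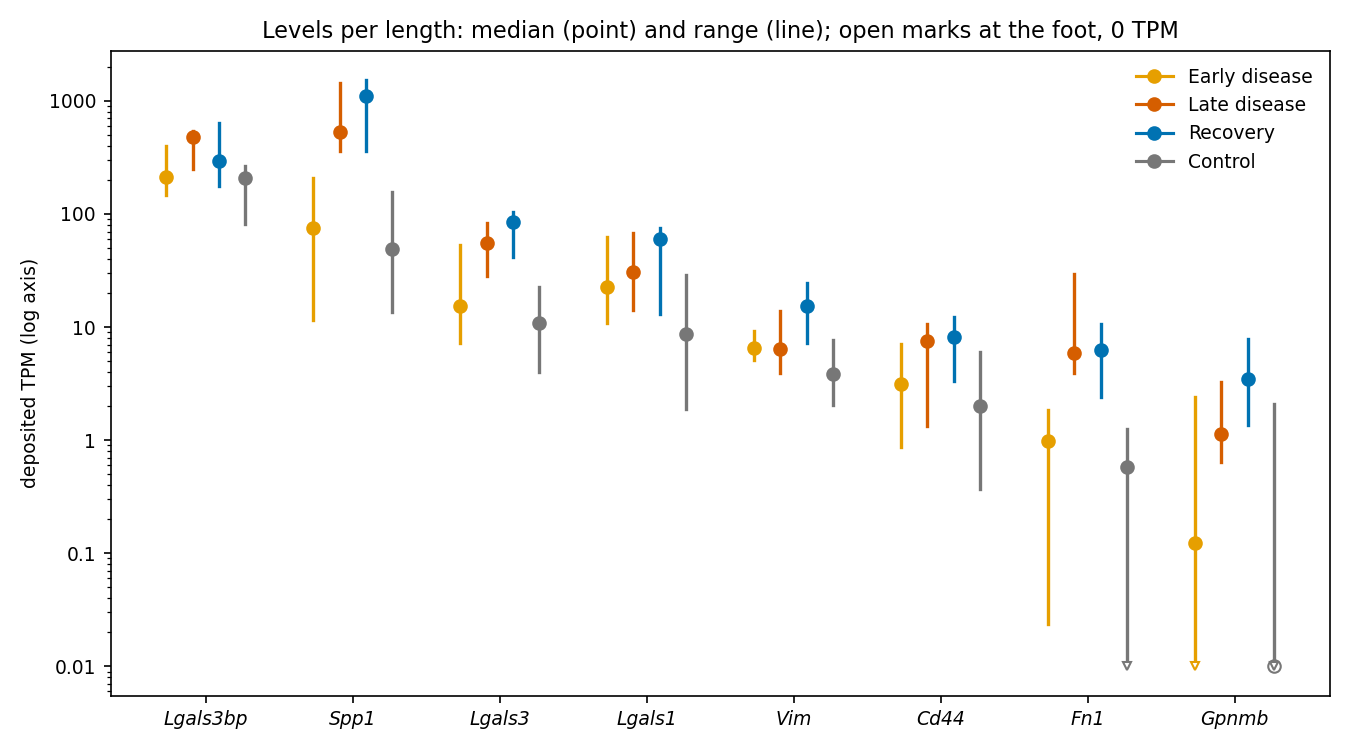
Deposited TPM on a log axis, with the median as a point and the range over libraries as a line, for the 8 genes in the 4 groups. Open marks at the foot stand for 0 TPM. Spp1 moved to the first place in late disease and recovery.

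Receptors for osteopontin and fibronectin were called in part. Beside this list and those below, 9.01% of all genes were called higher in late disease and 2.87% in recovery. In either direction 2080 of 13501 genes were called in late disease, 1217 of them higher, and 537 in recovery, 388 of them higher. The lists are short and none was tested as a set. Of 9 tested integrin, syndecan and related receptor genes, 4 were called higher in late disease and 1 in recovery, with a median log2 fold change of 0.04 in late disease. Itga5, whose product pairs with integrin beta-1 as the main fibronectin receptor, averaged 48.7 ± 11.9 CPM in late disease and 32.9 ± 12.6 CPM in controls (0.63 ± 0.18, edgeR adjusted p = 0.0161), and rose by 0.82 ± 0.18 in recovery (edgeR adjusted p = 0.00443). Sdc3, Sdc4 and Itga4 rose in late disease by 0.89, 0.86 and 1.08 (edgeR adjusted p = 0.0287, 0.0467 and 0.0469). Itgav, part of the vitronectin receptors that bind osteopontin, stood at -0.34 ± 0.15 (edgeR adjusted p = 0.109), and Itgb5 at 3767 ± 730 CPM in late disease and 3760 ± 273 CPM in controls.

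Among 12 tested ligands and partners of CD44, 3 were higher and 2 lower in late disease, and 2 were higher in recovery. Cd74, the invariant chain that also serves with CD44 as a receptor for MIF, averaged 254 ± 102 CPM in late disease, 371 ± 63.0 CPM in recovery and 66.4 ± 22.1 CPM in controls (log2 1.96 and 2.50, edgeR adjusted p = 1.96e-06 and 3.25e-08). Msn and Ezr, which link CD44 to actin, rose in late disease by 0.33 and 0.91, and their relative Rdx fell by 0.35 (edgeR adjusted p = 0.0104, 0.0408 and 0.00142). Mif, the ligand of CD74, rose in recovery by 0.73 ± 0.12 (edgeR adjusted p = 0.000138). Hyal2, a hyaluronidase, fell by 0.54 in late disease (edgeR adjusted p = 0.0312).

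Of 4 other tested galectin genes, Lgals4 alone was called in late disease (1.85 ± 0.64, edgeR adjusted p = 0.046), with 1.22 ± 0.76 CPM in late disease and 0.34 ± 0.31 CPM in controls, and none was called in recovery. Lgals9, the most abundant of them, averaged 425 ± 59.9 CPM in late disease and 399 ± 55.7 CPM in controls (0.10 ± 0.11, edgeR adjusted p = 0.579). Lgals8 differed by 0.08 ± 0.08 in late disease (edgeR adjusted p = 0.56).

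Of 17 tested proteases, inhibitors and cross-linkers of matrix, 5 were higher in late disease and 8 in recovery, and none lower. Plaur, the urokinase receptor, averaged 41.5 ± 29.7 CPM in late disease, 39.3 ± 9.13 CPM in recovery and 8.70 ± 3.34 CPM in controls (2.27 and 2.18, edgeR adjusted p = 1.96e-06 and 6.38e-06). Mmp12, macrophage elastase, averaged 14.6 ± 10.6 CPM in late disease, 26.1 ± 10.02 CPM in recovery and 3.62 ± 3.68 CPM in controls (2.03 and 2.87, edgeR adjusted p = 0.016 and 0.00221). Mmp9, also a neutrophil granule gene, stood at 41.8 ± 42.2 CPM in recovery and 2.34 ± 4.98 CPM in controls (edgeR adjusted p = 0.0164). Lox, a collagen cross-linking oxidase, rose by 2.23 in late disease and by 3.13 in recovery (edgeR adjusted p = 0.0468 and 0.0116). Of 5 other tested matrix proteins 1 was called higher and 1 lower in late disease, and none was called in recovery. The higher one, Ecm1, had 118.6 CPM in Late disease 6 and 2.22 ± 0.55 CPM in the other 6 late disease libraries (SD), against 1.01 ± 1.18 CPM in controls (edgeR adjusted p = 0.00266, and 0.306 without Late disease 6). Sparc fell by 0.36 (edgeR adjusted p = 0.0342).

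Other intermediate filament genes gave no call in late disease among 7 tested and 1 in recovery, the nuclear lamin gene Lmnb1 (1.13 ± 0.28, edgeR adjusted p = 0.0146). Nes, a filament that assembles with vimentin, had 7.47 ± 4.66 CPM in late disease and 2.71 ± 1.76 CPM in controls (1.52 ± 0.56, edgeR adjusted p = 0.0595). Of 11 tested genes of the MITF and TFE factors and of the response to lysosomal damage, the list to which Gpnmb belongs, 2 were higher and 1 lower in late disease and none was called in recovery. Mcoln1, a lysosomal calcium channel, rose by 0.48 ± 0.10 (edgeR adjusted p = 0.0021), Fnip2 by 0.59 ± 0.19 (edgeR adjusted p = 0.0288), and Pla2g15, a lysosomal phospholipase, fell by 0.63 (edgeR adjusted p = 0.000207). Mitf itself stood at 22.8 ± 4.72 CPM in late disease and 17.3 ± 4.08 CPM in controls (0.40 ± 0.15, edgeR adjusted p = 0.0719).

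Among 26 other genes of the disease-associated microglial state, 18 were higher in late disease and 17 in recovery, with median log2 fold changes of 1.14 and 1.24. Csf1 averaged 105 ± 29.4 CPM in late disease, 85.8 ± 26.6 CPM in recovery and 18.5 ± 8.05 CPM in controls, and Apoe 3357 ± 3535, 2357 ± 767 and 196 ± 292 CPM in the same order. Of 12 homeostatic genes 6 fell in late disease, among them Tmem119 by 0.72 and P2ry12 by 0.62 (edgeR adjusted p = 2.98e-06 and 0.00517), and none in recovery. Of markers of other cells, 1 of 11 neutrophil and 2 of 10 monocyte markers tested were higher in late disease, beside the 10 and 8 in recovery given above. In both late disease and recovery 1 of 3 tested endothelial markers was higher, and none of 5 astrocyte, 5 oligodendrocyte or 1 lymphocyte marker was called. The 1 tested marker of fibroblasts and mural cells, Pdgfrb, was lower in late disease, at 0.076 ± 0.18 CPM against 0.86 ± 0.94 CPM in controls (SD; edgeR adjusted p = 0.0461), and was not called in recovery.

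Several calls of these other genes rested on single libraries. The late disease calls of Sdc3, Sdc4, Itga4, Msn, Ezr, Hyal2, Lgals4, Lox, Ecm1, Sparc, Fnip2 and Pdgfrb each ended in at least 1 of the 21 fits that left out 1 library, with a highest edgeR adjusted p between 0.0564 (Msn) and 0.306 (Ecm1). Leaving out Late disease 6 ended all of these but Sdc3 and Lox, and leaving out Late disease 3 ended all but Ecm1. In recovery the Mmp9 call ended without Recovery 3 or Recovery 9 (edgeR adjusted p up to 0.127), and the Lmnb1 call without Recovery 2 (edgeR adjusted p = 0.127). Mean Apoe in late disease was 2060 CPM without Late disease 6, and its call remained (edgeR adjusted p = 0.000231).

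Library by library within groups, the 8 genes did not vary as a block. After the group means were subtracted from log2 CPM, 17 of the 28 pairs had a positive Pearson correlation over the 35 libraries. Cd44 and Vim had r = 0.57 and Spearman's rho = 0.59 (permutation within groups, adjusted over 28 pairs, p = 0.0157 and 0.0129), with r = 0.49 without the 2 farthest libraries and 0.55 within date codes. Lgals3 and Vim had r = 0.50 and rho = 0.50 (permutation p = 0.0157 and 0.0375), with r = 0.52 and 0.51 in the same checks. No other pair passed by both measures. Spp1 and Fn1, the genes of the largest late disease differences, had r = -0.03 and rho = -0.14 (permutation p = 0.932 and 0.798), with r = -0.23 without the 2 farthest libraries and 0.29 within date codes.

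By the same group-centred levels over 35 libraries, the genes most like each member were others. Spp1 was most like Myo1e, Kif22 and Klrb1a (rho 0.69, 0.69 and 0.68). Lgals3 was most like Pwwp2b, Ccl4 and Clec7a (0.67, 0.66 and 0.65). Lgals3bp was most like Rtp4, H2-Q7 and Slfn2 (0.78, 0.78 and 0.75), and Gpnmb like Fcho1, Plk3 and Pdap1 (0.67, 0.65 and 0.63). Fn1 was most like Sertad2 (0.66), Cd44 like Cox6a2 (0.67) and Vim like Tmem221 (0.70). Lgals1 was most like Rpl3-ps1 (0.84), a pseudogene whose counts share reads with near-identical copies and are uncertain. These are the highest of all tested genes and carry no test.

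No change of these differences with sex was detected. The interaction of sex with group was tested for early disease, late disease and recovery against control, and none of the 8 genes was called, nor was any gene tested (0.00%). At an unadjusted p under 0.05, Vim alone differed, in late disease (-1.14 ± 0.48, edgeR adjusted p = 0.977), and 2.44%, 4.95% and 5.23% of all genes did in early disease, late disease and recovery. The smallest groups within a sex were 3 mice, so large differences by sex could be missed. In late disease all 3 females had the date code 1102 and all 4 males had 1019 or 1130. Sex and date thus cannot be told apart in that group. Between rNLS8 controls on doxycycline and wild-type controls none of the 7 members tested was called, against 0.00805% of 12425 genes, and none at an unadjusted p under 0.05, against 7.48% of genes, and Gpnmb had too few counts to be tested there.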

How the data were processed

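The authors deposited expected counts, estimated fragments per gene that need not be whole, and TPM values for 45706 genes in 35 libraries, and a design table with date codes and sex. RSEM and DESeq2 and the build mm10 are named per the submitters' processing notes, with versions and settings not given in the sources used here. Reads that fit near-identical copies are divided by an estimate in RSEM. Libraries were made with the SMART-Seq Ultra Low-input and NexteraXT kits, per the labels' protocols, which do not mark strand, so reads of overlapping genes cannot be told apart. Spp1 overlaps Gm42793, with a mean count of 5.06, and the genes that overlap Fn1 and Cd44 had a mean count of 0. No molecular identifiers are named, so counting precision refers to fragments.

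Of the deposited counts 84.67% were whole within 1e-06, and all were rounded. Symbols were matched for 45143 genes, and coordinates are from GENCODE on mm10, matched by identifier without version. edgeR 4.0.16 in R 4.3.3 fitted group and sex over all 35 libraries, with TMM and the package's low-count filter, which kept 13501 genes (12425 in the fit of the 14 controls). The standard error is the log2 fold change over the square root of F. Controls 7 and 8 have 2 different sexes in the design table's 2 sex columns, and the label's was used. Alternatives were DESeq2 1.42.0, RLE scaling, no filter, limma 3.58.1 on log2 of TPM plus 1 or plus 0.1 (TPM of at least 1 in 6 libraries), other control sets, a date code term, the share of TPM outside the table as a covariate, and leaving out each library. That share was 13.9 to 30.8% in the 9 controls of 0810 and 2.32 to 11.4% in the other 26 libraries. The test was tried on simulated counts first.

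Named genes outside the 8 are up to 5 per list with the smallest p in late disease and up to 5 in recovery, up to 3 most abundant markers of other cells, and the 3 genes most alike per member. Genes, lists and tests were chosen with earlier results of these data known. P-values measure the spread between libraries, each 1 mouse per the labels.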

Additional observations from a re-analysis of the deposited data

Results flagged for a closer look

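Among 24 sets of 1 gene in 1 group of 7 libraries, 3 held a library far from the others by Dixon's ratio, where chance gives about 1 in 20. Fn1 in Late disease 6 was the highest of its group, with a log2 CPM of 6.904 and a gap of 0.811 of the range. Cd44 in the same library was the lowest of its group, with a log2 CPM of 1.376 and a gap of 0.604. Lgals1 in Recovery 7 was the lowest of its group, with a log2 CPM of 2.666 and a gap of 0.806.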

How the results depend on the processing

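In late disease against control, the number of the 8 genes called, 6, was 3 with a covariate for the share of TPM outside the table, 0 with a date code term, and 0 with that term without Late disease 6. For recovery against late disease the 1 call, Vim, became 0 calls under limma with either pseudocount, the TPM share covariate, the replicate block, or only the 2 groups compared. These fits called between 0.0148% and 0.819% of all genes. On leaving out each library 0 to 1 of the 8 were called, beside 6 to 223 of all genes. For late against early disease DESeq2 called 4 in place of 2, beside 2.64% of all genes. In early disease limma called 2 with either pseudocount, beside 10.5% and 10.3% of all genes. A fit with only rNLS8 controls called 1 there, Gpnmb (edgeR adjusted p = 0.0184), beside 5.48% of all genes. Leaving out each library gave 5 to 7 calls in late disease, 6 to 8 in recovery, 2 to 3 for late against early disease, 3 to 5 for recovery against early disease and 0 in early disease. Over all genes tested the same fits called 1327 to 2265, 329 to 747, 16 to 235, 38 to 124 and 0 to 77, in that order.

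Several differences that the test over all 35 libraries did not call changed sign. In early disease against control, Spp1, Lgals3bp and Gpnmb stood at -0.50, -0.052 and -1.58 with the TPM share covariate, -0.44, -0.051 and -0.25 with the date term, -0.54, -0.14 and -1.11 against controls of shared dates, -0.11, -0.027 and -0.57 against wild-type controls, and -0.45, -0.18 and -1.53 against wild-type controls of 2 weeks. Lgals3bp stood at -0.015 without Controls 7 and 8. Cd44 stood at -0.050 against rNLS8 controls and -0.16 against wild-type controls of 2 weeks. On leaving out each library, early disease ran from -0.23 to 0.36 for Spp1, -0.076 to 0.17 for Lgals3bp, -1.60 to 0.83 for Gpnmb and -0.21 to 0.19 for Cd44, Fn1 in recovery against late disease from -0.65 to 0.35, and Vim in late against early disease from -0.032 to 0.26. Vim in that comparison was -0.00011 and -0.0090 under limma with a pseudocount of 1 and 0.1, and -0.0064 with the replicate block. Between rNLS8 and wild-type controls Spp1 was 0.20 with the TPM share covariate and 0.43 among controls of date 0810. The cause was not tested.

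Counts over all genes moved by over 1.5 times in places. Late disease called 2080 genes, 2 with the date term, 7 with it without Late disease 6, 191 against controls of shared dates, 252 with the TPM share covariate, 1009 against wild-type controls and 1327 to 2265 on leaving out each library. Recovery called 537, 253 with that covariate, 293 against wild-type controls, 912 with the block, 353 without Recovery 3 and Control 6, and 329 to 747 on leaving out each library. Early disease called 1, and 138 by DESeq2, 613 with the block, 735 against rNLS8 controls and up to 1390 under limma. Late against early disease called 100, 356 by DESeq2, 24 in the fit of the 2 disease groups with date code, and 16 to 235 on leaving out each library. Recovery against late disease called 79, 404 by DESeq2, 2 with the block and 6 to 223 on leaving out each library. Recovery against early disease called 107 and between 38 and 603 over its alternatives.

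Replicate numbers did not pair the libraries: over 37 pairs of the same number, correlations ran from -0.18 to 0.13, and 2 were over 0.1. With the replicate block 7 of the 8 genes were called in late disease and 8 in recovery, beside 17.9% and 6.76% of all genes. Low counts limit Gpnmb above all, and with 1 recovery date a shift shared by its 7 libraries cannot be seen.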
